A study of Mus musculus with 37 samples.

Results

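The nucleolar and ribosome assembly genes described here are 44 genes chosen by name, for what their products do, and found by their mouse Ensembl identifiers among the 51123 genes of the table. No expression value entered the rule, but the list was drawn up with earlier results of these data known. Ribosomes are built in the nucleolus, where RNA polymerase I makes a long precursor that is modified, folded, cut and joined with ribosomal proteins. Small nucleolar ribonucleoproteins (snoRNPs) methylate or pseudouridylate the precursor, a large complex called the small-subunit processome folds and cuts the part that becomes the small subunit, and another set of factors assembles the large subunit. Many of the genes for these factors are textbook targets of the transcription factor Myc, and growing cells use them heavily.

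RNA was sequenced from cultured bone marrow (BM) and osteosarcoma (OS) cells of mice in 37 libraries. In the knockout mice Osx1-Cre, which is active in mesenchymal progenitors committed to bone, deletes Trp53 alone (SKO) or Trp53 together with Wwox (DKO), and the study's mice carried the Rosa26-LSL-tdTomato reporter that Cre switches on. Controls are labelled WT and are described elsewhere in the series as Cre-negative, so the control genotype is not settled. Cells labelled yBM came from young mice without tumors, BMT cells from the BM of tumor-bearing mice, and tumor cells from the OS itself. All were grown in culture, so a library holds whatever adherent cells survived there. Set 1 held 16 libraries, namely control BM (n = 4), DKO yBM (n = 6, with 3 at 1.5 months and 3 at 4 months), DKO BMT (n = 3) and DKO tumor (n = 3). Set 2 held 21 libraries in 7 groups of 3, namely control BM and the yBM, BMT and tumor cells of SKO and of DKO mice, for which no age is labelled. The sets share no library and were fitted separately. Every comparison with control within a set uses the same control libraries, so those comparisons are not independent of each other.

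Levels are given as TPM, a unit that corrects for transcript length and library total. Differences are those of log2(TPM + 1), and for genes of low level they come out smaller than the change in TPM. A gene was called when its adjusted p from limma, after Benjamini-Hochberg correction over all genes tested, was under 0.05. All 44 genes passed the filter of at least 1 TPM in at least 3 libraries in both sets, where the lowest single values were 2.12 TPM in set 1 and 0.862 TPM in set 2, both for Rrp12.

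Several libraries stood apart or went against their labels. Trp53 lay between 40.1 and 53.4 TPM in the controls of set 1 and was still at 28.4 and 32.3 TPM in the libraries labelled DKO BMT 2 and 3 of that set. Wwox went against the label, as over 50% of the control mean in a library labelled DKO or under it in one labelled control or SKO, in 5 DKO yBM libraries, DKO tumor 1, DKO BMT 1 and control BM 3 of set 1, and in SKO BMT 2 and 3 and all 3 DKO tumor libraries of set 2. The library labelled SKO tumor 2 stood apart in set 2, with the lowest Myc of the set at 5.33 TPM, 26.8% of its TPM in mitochondrial transcripts and a median-ratio size factor of 0.428. The 20 leukocyte and macrophage markers also moved with the groups. They summed to 23291 to 28376 TPM in the controls of set 2 and to 7.33 to 3252 TPM in its knockout libraries, against 3132 to 16490 TPM in the controls, 1015 to 18275 TPM in the DKO yBM, 6589 to 12367 TPM in the DKO BMT and 14.2 to 4234 TPM in the DKO tumor libraries of set 1. In these bulk libraries fewer cells of a type and less RNA per cell cannot be told apart.

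Against their own controls, the 44 genes were mostly higher in every knockout group, and none was called lower in any of the 9 comparisons. Of all genes tested, 6.14%, 1.40% and 2.21% were called lower in DKO yBM, DKO BMT and DKO tumor of set 1. In set 2 these shares were 7.77% in SKO yBM, 10.2% in DKO yBM, 8.36% in SKO BMT, 7.79% in DKO BMT, 9.57% in SKO tumor and 9.48% in DKO tumor. In set 1, 10 of the 44 rose in DKO yBM, where 1.67% of all genes tested were called higher. In DKO BMT 9 rose, beside 0.958% of all genes, and in DKO tumor 12 rose, beside 1.19%. The median difference of the 44 genes was 0.63, 0.91 and 1.08 in these 3 groups, and that of all genes tested was -0.22, -0.06 and -0.09. In set 2, 16 rose in SKO yBM beside 5.78% of all genes, and 31 rose in DKO yBM beside 9.34%. Of the BMT groups, SKO had 15 genes called higher beside 5.00% and DKO had 17 beside 4.22%. Only 3 rose in SKO tumor beside 2.01%, and 29 rose in DKO tumor beside 7.71%. The medians of the 44 genes in set 2 ran from 0.29 in SKO tumor to 1.52 in DKO yBM, and those of all genes tested from -0.11 in SKO tumor to 0.24 in SKO yBM. Median-ratio scaling brought the medians of all genes to between -0.04 and 0.06 in the 9 comparisons and left those of the 44 genes at 0.51 in SKO tumor and 0.81 to 1.38 elsewhere. With that scaling 22, 16 and 21 of the 44 were called higher in DKO yBM, DKO BMT and DKO tumor of set 1, and 6 in SKO tumor of set 2.

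**Figure D1:**
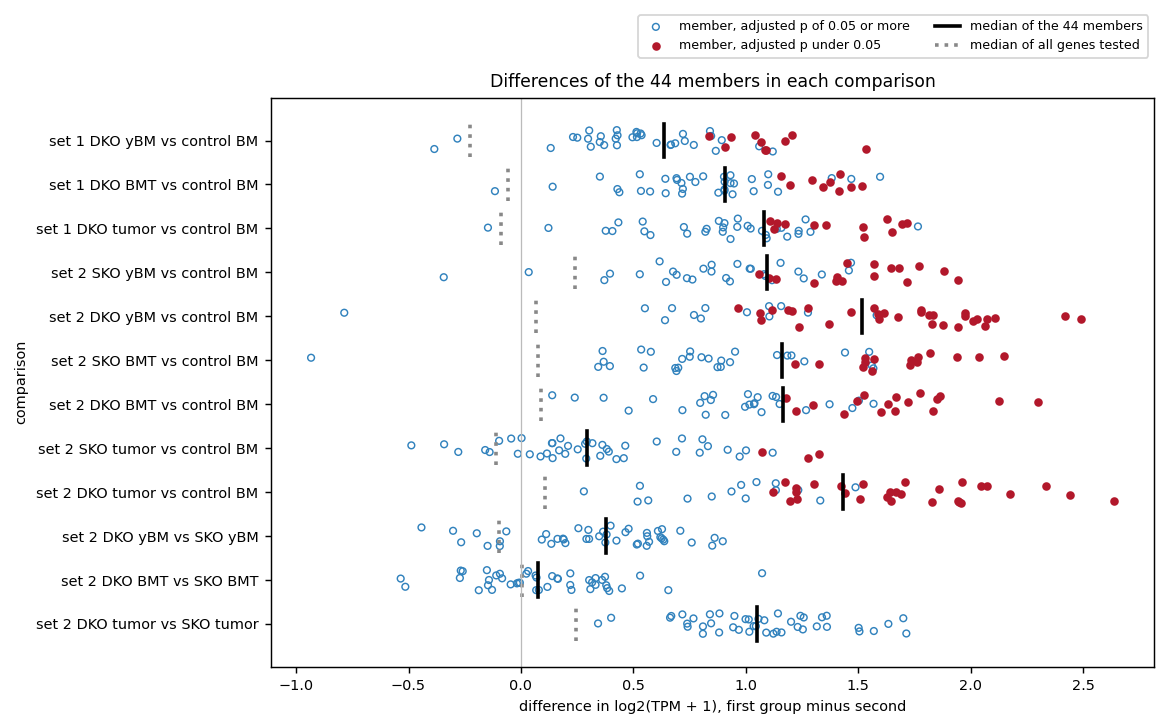
Difference in log2(TPM + 1) of each of the 44 genes in 12 comparisons, the 9 with control and the 3 of DKO with SKO, with 1 point a gene, filled red where the adjusted p from limma was under 0.05. The black line is the median of the 44 genes and the dotted line that of all genes tested. The black line lies above the dotted line in the 9 comparisons with control, least so in SKO tumor (0.29 against -0.11), and no point is filled between DKO and SKO.

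Leaving out 1 library at a time moved these counts widely. In DKO yBM of set 1, 1 was called without control BM 4, 3 without control BM 2, 5 without control BM 3, and 4, 5 and 6 without DKO yBM 1, 3 and 5. In DKO BMT of set 1, 1 was called without control BM 4, 5 without control BM 2 and 2 without any 1 of the BMT libraries. In DKO tumor of set 1 none was called without DKO tumor 3 or without control BM 4, 2 without control BM 3 and 24 without DKO tumor 2. In set 2 the count fell to 5 in SKO yBM (without SKO yBM 3, and to 6 to 10 without any other library), 16 in DKO yBM (without DKO yBM 1), 7 in SKO BMT (without SKO BMT 2) and 12 in DKO tumor (without DKO tumor 2). It fell to 6 in DKO BMT without control BM 1 and to 7 there without DKO BMT 1 or 3. Without control BM 1, a library with 32.5% mitochondrial TPM, 20 were called in DKO yBM, 8 in SKO BMT and 16 in DKO tumor, and 18 were called in DKO tumor without DKO tumor 1. SKO tumor had 7 called without SKO tumor 2, none without SKO tumor 1 and 1 without control BM 1 or 2.

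Counts of genes whose libraries did not overlap tell how cleanly the groups parted. In set 1, all libraries of DKO yBM lay above all controls for 11 of the 44 genes, and this held for 3.19% of all genes tested. The count was 23 in DKO BMT (7.14% of all genes) and 17 in DKO tumor (4.97%). In set 2 it was 41 in SKO yBM (30.9%), 39 in DKO yBM (24.9%), 30 in SKO BMT (17.8%), 38 in DKO BMT (15.9%), 6 in SKO tumor (7.46%) and 39 in DKO tumor (21.8%). The single gene that lay below all controls was Mphosph10 in SKO BMT, where 16.8% of all genes did.

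**Figure D2:**
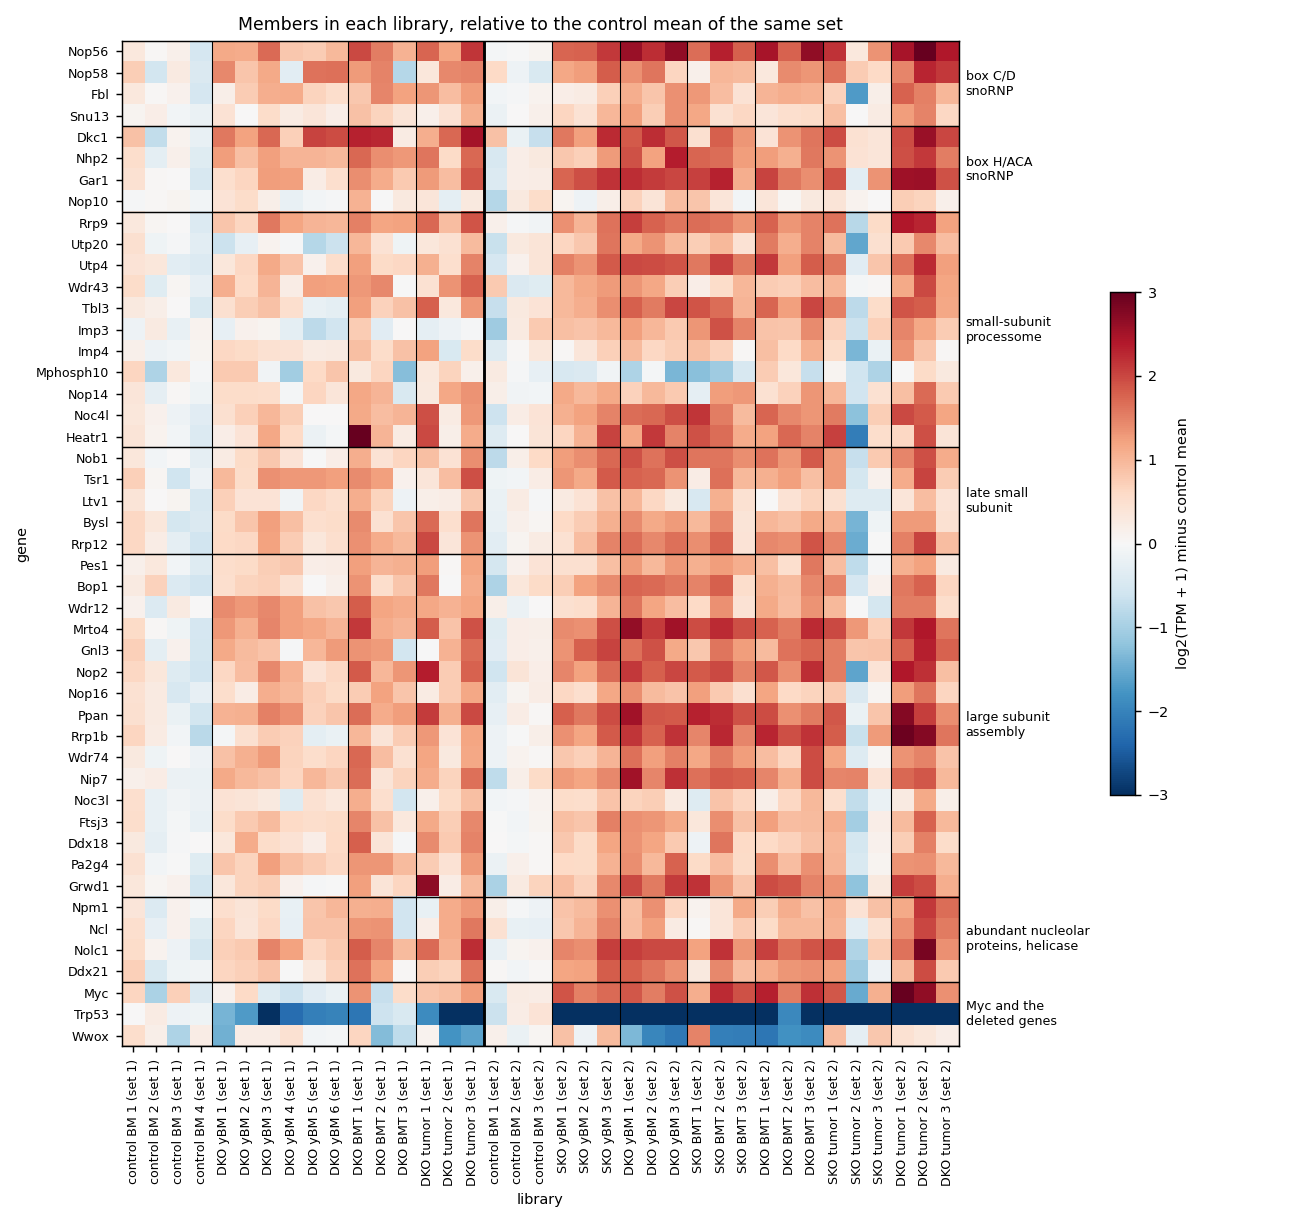
Heat map of log2(TPM + 1) minus the mean of the control libraries of the same set, with genes in rows ordered by role above Myc, Trp53 and Wwox, and libraries in columns grouped by set and group, with colours ending at -3 and 3. The columns of the knockout groups are mostly above control across the rows, while SKO tumor 2 of set 2 is near or below control in most rows.

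Averaged over the 44 genes, log2(TPM + 1) lay between 4.32 and 5.07 in the controls of set 1 and between 5.15 and 5.58 in its DKO yBM libraries, without overlap. It reached 5.10 to 6.03 in DKO BMT and 5.29 to 6.01 in DKO tumor. In set 2 the controls lay between 4.43 and 4.82, and the knockout libraries other than SKO tumor between 5.58 and 6.48. The SKO tumor libraries were at 5.91, 4.18 and 5.01, so that SKO tumor 2 was below every control. Together the 44 genes took between 0.141% and 0.646% of the TPM of a library.

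Among the box C/D snoRNP proteins, which place methyl groups on the ribosomal RNA precursor, Nop56, a core protein of the particle, rose in all 9 comparisons. It was at 68.9, 56.4, 62.0 and 38.9 TPM in the controls of set 1, at 94.4 to 183 TPM (median 115) in DKO yBM, at 220, 163 and 115 TPM in DKO BMT and at 188, 128 and 248 TPM in DKO tumor. Every knockout library of set 1 was thus above every control. In set 2 it was at 35.1, 36.1 and 38.5 TPM in the controls, 124, 128 and 163 TPM in SKO yBM, 224, 174 and 237 TPM in DKO yBM, 120, 188 and 130 TPM in SKO BMT, 207, 127 and 236 TPM in DKO BMT, 169, 45.4 and 94.8 TPM in SKO tumor and 207, 310 and 197 TPM in DKO tumor. All knockout libraries of set 2 were again above all controls, SKO tumor 2 by the least. The difference was 1.09 ± 0.25 (SE) in DKO yBM (adjusted p = 0.0238, limma), 1.52 ± 0.30 in DKO BMT and 1.69 ± 0.30 in DKO tumor of set 1, and ranged in set 2 from 1.28 ± 0.37 in SKO tumor (adjusted p = 0.0305) to 2.64 ± 0.37 in DKO tumor (adjusted p = 4.72e-05).

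The other box C/D proteins moved less evenly. Nop58, the partner of Nop56 in the particle, was the most abundant of the group, with 128, 75.8 and 60.7 TPM in the controls of set 2 and 232, 411 and 366 TPM in DKO tumor. It rose there (1.95 ± 0.40, adjusted p = 0.0022), in SKO yBM (187, 200 and 297 TPM) and in DKO yBM (219, 255 and 132 TPM). It was at 93.4, 169 and 162 TPM in SKO BMT, 105, 225 and 211 TPM in DKO BMT and 263, 142 and 128 TPM in SKO tumor. The BMT groups overlapped control, and the lowest SKO tumor library was just above the highest control. In set 1 Nop58 was called in no group, with 146, 59.2, 105 and 64.5 TPM in the controls, 69.8 to 275 TPM (median 217) in DKO yBM, 214, 249 and 48.0 TPM in DKO BMT and 111, 240 and 249 TPM in DKO tumor, all overlapping. Snu13, which binds the kink-turn of the snoRNA, rose in DKO yBM and DKO tumor of set 2, by 1.12 ± 0.30 in each. Its levels were 92.4, 106 and 117 TPM in the controls, 248, 176 and 272 TPM in DKO yBM and 249, 297 and 162 TPM in DKO tumor, with no overlap. SKO yBM at 164, 142 and 210 TPM, SKO BMT at 235, 145 and 162 TPM and DKO BMT at 135, 149 and 155 TPM did not overlap control either, while SKO tumor at 196, 105 and 123 TPM did. In set 1 Snu13 was at 126, 136, 113 and 103 TPM in the controls, 119 to 174 TPM (median 147) in DKO yBM, 221, 188 and 156 TPM in DKO BMT and 133, 160 and 249 TPM in DKO tumor, where DKO BMT alone was above all controls. Fbl, the methyltransferase fibrillarin, rose in DKO BMT and DKO tumor of set 1, by 1.16 ± 0.26 and 1.17 ± 0.26, and in set 2 only in DKO tumor (1.42 ± 0.43, adjusted p = 0.031).

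The box H/ACA proteins guide pseudouridylation, and Dkc1 (dyskerin) is the enzyme among them. Nhp2, a core protein, was at 59.4, 32.8, 45.1 and 31.3 TPM in the controls of set 1 and at 77.6 to 98.0 TPM (median 83.4) in DKO yBM, 136, 109 and 101 TPM in DKO BMT and 126, 61.2 and 137 TPM in DKO tumor. All knockout libraries were above all controls, and the differences were 1.07 ± 0.24, 1.47 ± 0.28 and 1.30 ± 0.28. In set 2 Nhp2 was at 32.2, 52.1 and 56.3 TPM in the controls, 174, 106 and 239 TPM in DKO yBM (1.83 ± 0.34, adjusted p = 0.000947) and 176, 201 and 134 TPM in DKO tumor (1.86 ± 0.34, adjusted p = 0.000753). It was called in 7 of the 9 comparisons, with SKO yBM at 80.2, 75.1 and 112 TPM (0.93 ± 0.34, adjusted p = 0.079) and SKO tumor at 118, 62.1 and 59.0 TPM not called. SKO BMT was at 156, 147 and 111 TPM and DKO BMT at 111, 96.3 and 138 TPM, and in all 6 knockout groups of set 2 every library was above every control. Gar1, another core protein, was at 20.0, 30.8 and 31.5 TPM in the controls of set 2 and at 92.4, 106 and 124 TPM in SKO yBM (1.95 ± 0.44, adjusted p = 0.00582). It also rose in the 4 groups DKO yBM, SKO BMT, DKO BMT and DKO tumor of set 2, and in DKO tumor of set 1. DKO yBM was at 130, 119 and 110 TPM, SKO BMT at 115, 138 and 58.2 TPM, DKO BMT at 112, 82.8 and 72.5 TPM, DKO tumor at 161, 164 and 104 TPM and SKO tumor at 103, 21.3 and 70.3 TPM, so that SKO tumor 2 alone lay among the controls. In set 1 it was at 56.8, 42.1, 41.6 and 29.1 TPM in the controls, 48.6 to 99.7 TPM (median 62.2) in DKO yBM, 109, 91.0 and 72.2 TPM in DKO BMT and 102, 79.0 and 154 TPM in DKO tumor. Here DKO yBM overlapped control and the other groups did not. Dkc1 rose by 1.53 ± 0.44 in DKO yBM of set 1, from a mean of 17.0 to 49.1 TPM, with an adjusted p of 0.0456 that is close to the threshold. Nop10, the smallest of the H/ACA proteins, was called nowhere.

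**Figure D3:**
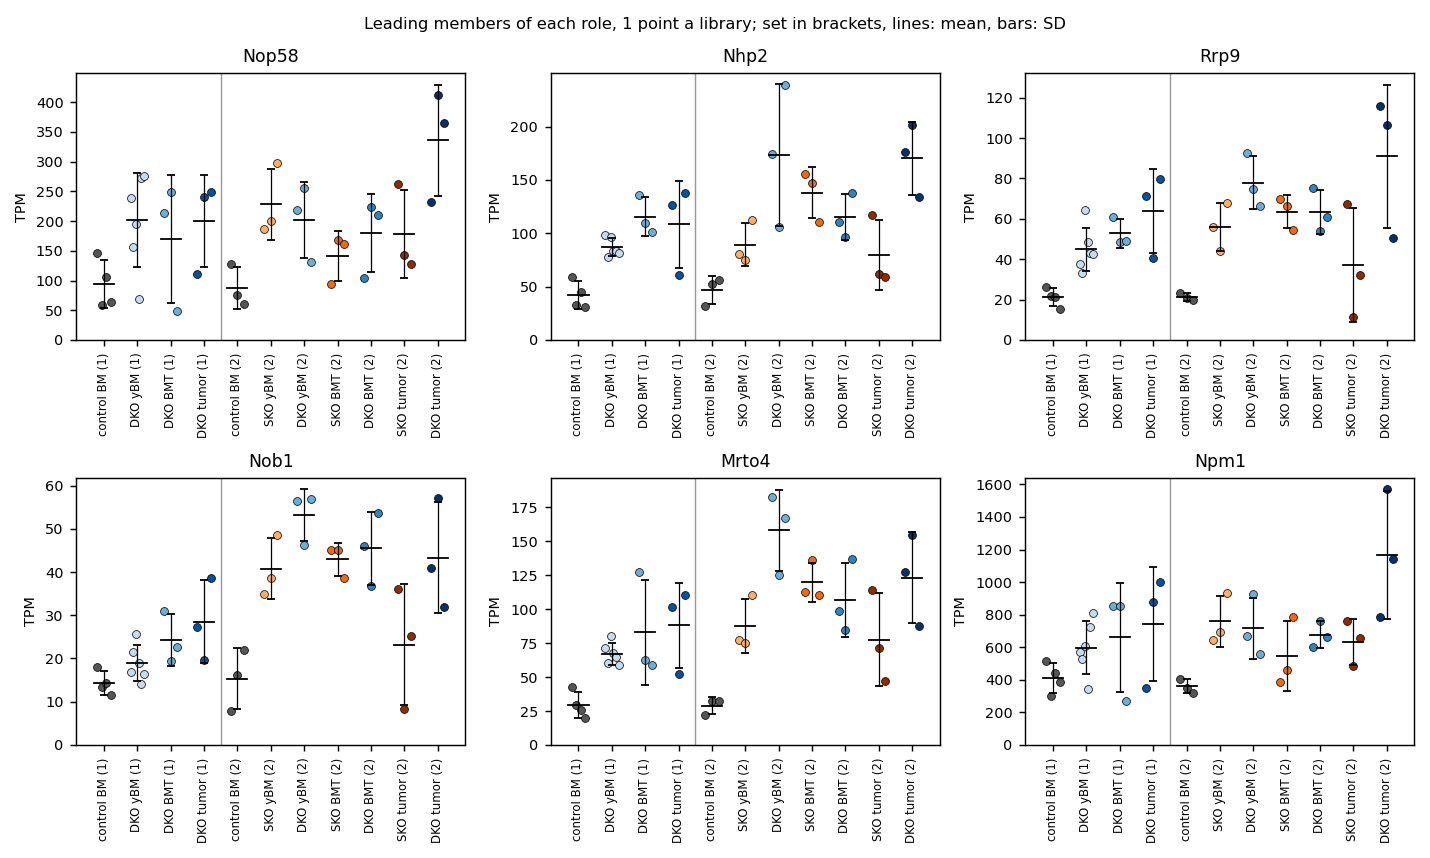
TPM by group for Nop58, Nhp2, Rrp9, Nob1, Mrto4 and Npm1, with 1 point a library, a line at the group mean, a bar of 1 SD and axes that start at 0. Rrp9 and Mrto4 lie above their controls in all knockout groups except SKO tumor for Rrp9, where 1 library of the 3 (11.5 TPM) is below the controls, while Nop58 and Npm1 overlap between groups in set 1.

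The small-subunit processome had 11 members, which were called less evenly. Rrp9, a protein of the U3 snoRNP at the heart of the processome, was at 26.2, 21.7, 21.1 and 15.5 TPM in the controls of set 1, at 33.1 to 64.1 TPM (median 42.9) in DKO yBM, 61.1, 48.4 and 48.9 TPM in DKO BMT and 71.4, 40.5 and 80.0 TPM in DKO tumor. The groups did not overlap with control, and Rrp9 was the only processome gene called in set 1, in all 3 comparisons (1.04 ± 0.23, 1.30 ± 0.27 and 1.52 ± 0.27). In set 2 the controls were at 23.5, 20.6 and 19.6 TPM, DKO yBM at 92.4, 74.5 and 66.6 TPM (1.82 ± 0.44, adjusted p = 0.008) and DKO tumor at 116, 107 and 50.4 TPM (1.96 ± 0.44, adjusted p = 0.00459). SKO yBM was at 55.9, 43.9 and 67.9 TPM and missed the threshold (1.34 ± 0.44, adjusted p = 0.0529), and SKO tumor was at 67.3, 11.5 and 32.0 TPM. SKO BMT at 69.7, 66.3 and 54.3 TPM and DKO BMT at 75.2, 54.1 and 61.1 TPM were above all controls. Wdr43, a chromatin-associated processome factor, was the most abundant of the 11, with 54.5, 22.9 and 24.0 TPM in the controls of set 2 and 70.1, 126 and 72.5 TPM in DKO tumor (1.44 ± 0.36, adjusted p = 0.0102). It was at 61.8, 70.2 and 77.5 TPM in SKO yBM, 79.8, 70.3 and 52.2 TPM in DKO yBM, 35.7, 45.9 and 63.2 TPM in SKO BMT, 53.3, 51.4 and 60.2 TPM in DKO BMT and 62.8, 29.8 and 31.7 TPM in SKO tumor, and of the 6 groups SKO yBM and DKO tumor were above all controls. In set 1 it was at 44.9, 23.2, 31.5 and 25.2 TPM in the controls, 35.5 to 72.4 TPM (median 63.8) in DKO yBM, 75.3, 83.7 and 29.8 TPM in DKO BMT and 41.7, 78.0 and 105 TPM in DKO tumor, all overlapping. Utp4, a factor of the t-UTP subcomplex, rose in all groups of set 2 but SKO tumor, with 1.57 ± 0.41 in SKO yBM, 1.73 ± 0.41 in SKO BMT and 1.72 ± 0.41 in DKO BMT. Of the 11 processome genes, 2 rose in SKO yBM and 5 in DKO yBM of set 2, 4 in SKO BMT and 3 in DKO BMT, and 0 in SKO tumor and 5 in DKO tumor.

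Mphosph10, which joins Imp3 and Imp4 in a subcomplex of the processome, went apart from the rest in DKO yBM and SKO BMT of set 2. It was at 21.1, 16.7 and 14.4 TPM in the controls of set 2, 8.56, 16.4 and 6.09 TPM in DKO yBM and 6.62, 7.65 and 12.2 TPM in SKO BMT. The SKO BMT libraries were all below the controls, yet the difference of -0.93 was not called (adjusted p = 0.134), nor was that of -0.79 in DKO yBM (adjusted p = 0.187). In DKO BMT it was at 29.9, 22.2 and 10.3 TPM and in DKO tumor at 17.0, 26.0 and 21.3 TPM. In set 1 it was at 23.6, 7.25, 18.6 and 14.5 TPM in the controls and 6.64 to 27.0 TPM in DKO yBM, which overlap. Its partners Imp3 and Imp4 parted too: Imp3 rose in SKO BMT of set 2, from a mean of 28.1 to 76.1 TPM (1.57 ± 0.42, adjusted p = 0.0188), and Imp4 was called nowhere. Heatr1, a large scaffold protein of the processome, was at 66.9 TPM in DKO BMT 1 of set 1 against 14.6 and 8.03 TPM in the other BMT libraries, so that its difference of 1.47 ± 0.57 rested on 1 library and was not called (adjusted p = 0.159).

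Of the 5 late small-subunit factors, which finish the pre-40S particle, none rose in set 1. Nob1, the endonuclease that makes the last cut of the 18S rRNA, was at 7.83, 16.2 and 21.9 TPM in the controls of set 2, 35.0, 38.7 and 48.6 TPM in SKO yBM, 56.3, 46.2 and 56.9 TPM in DKO yBM and 41.0, 57.2 and 31.8 TPM in DKO tumor. All of these were above all controls, and in DKO yBM the difference was 1.83 ± 0.42 (adjusted p = 0.00537). SKO BMT at 45.0, 45.2 and 38.6 TPM and DKO BMT at 46.0, 36.8 and 53.5 TPM were above all controls too, and SKO tumor was at 36.0, 8.38 and 25.3 TPM, with SKO tumor 2 among the controls. In set 1 Nob1 was at 18.1, 13.3, 14.4 and 11.6 TPM in the controls, 14.1 to 25.6 TPM (median 18.0) in DKO yBM, 31.1, 19.4 and 22.6 TPM in DKO BMT and 27.2, 19.6 and 38.7 TPM in DKO tumor. DKO yBM overlapped control, and DKO BMT and DKO tumor did not. Tsr1, a GTPase-like factor, was called higher in 3 comparisons of set 2, those of SKO yBM, DKO yBM and DKO tumor. In DKO yBM it rose from 15.0, 15.5 and 19.6 to 59.3, 56.9 and 43.7 TPM. It was at 42.8, 37.4 and 61.6 TPM in SKO yBM, 19.5, 54.2 and 33.7 TPM in SKO BMT, 36.0, 40.2 and 31.9 TPM in DKO BMT, 41.3, 11.1 and 18.3 TPM in SKO tumor and 36.9, 71.0 and 28.9 TPM in DKO tumor. Of these groups SKO BMT and SKO tumor overlapped control. In DKO yBM of set 1 it was at 28.7 to 51.9 TPM (median 48.0) against controls of 32.4, 20.2, 12.4 and 17.2 TPM, which overlap (1.12 ± 0.34, adjusted p = 0.0554). DKO BMT at 53.7, 47.0 and 21.5 TPM and DKO tumor at 25.2, 37.4 and 77.4 TPM overlapped control as well.

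The 16 large-subunit factors are the largest of the role groups. Mrto4, a placeholder for the ribosomal stalk protein P0, rose in all 9 comparisons. In set 1 it was at 42.8, 29.2, 26.1 and 19.9 TPM in the controls, 58.6 to 80.2 TPM (median 66.3) in DKO yBM, 127, 62.2 and 59.0 TPM in DKO BMT and 102, 52.1 and 110 TPM in DKO tumor. In set 2 it was at 21.7, 32.5 and 32.2 TPM in the controls, 77.3, 74.8 and 111 TPM in SKO yBM, 183, 125 and 167 TPM in DKO yBM, 113, 137 and 110 TPM in SKO BMT, 98.4, 85.0 and 137 TPM in DKO BMT, 114, 71.3 and 46.9 TPM in SKO tumor and 127, 155 and 87.8 TPM in DKO tumor. No knockout library of either set reached down to its controls, and of the SKO tumor libraries the lowest was SKO tumor 3. Its differences ran from 1.21 ± 0.27 in DKO yBM of set 1 (adjusted p = 0.0214) to 2.42 ± 0.33 in DKO yBM of set 2 (adjusted p = 2.74e-05).

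Ppan, which acts on the 27S precursor, rose in 8 of the 9 comparisons, with the largest difference of 2.15 ± 0.42 in SKO BMT (adjusted p = 0.0017). Pa2g4, an ErbB3-binding protein found on ribosomes, was the most abundant of the 16. It was at 91.2, 62.3, 65.6 and 51.0 TPM in the controls of set 1 and at 166, 167 and 128 TPM in DKO BMT, without overlap (1.20 ± 0.24, adjusted p = 0.0274). DKO yBM at 103 to 157 TPM (median 115) was also above all controls, and DKO tumor at 113, 89.6 and 161 TPM was not. In set 2 it was at 72.6, 90.7 and 83.5 TPM in the controls, 125, 122 and 170 TPM in SKO yBM, 216, 161 and 280 TPM in DKO yBM, 123, 157 and 122 TPM in SKO BMT, 215, 156 and 212 TPM in DKO BMT, 166, 59.2 and 86.7 TPM in SKO tumor and 209, 212 and 161 TPM in DKO tumor. SKO tumor alone overlapped control. Wdr12, of the PeBoW complex that processes the large-subunit precursor, rose in all 3 comparisons of set 1, by 1.18 ± 0.20 in DKO yBM (adjusted p = 0.00836). Gnl3 (nucleostemin), a GTPase, rose in SKO tumor from a mean of 21.0 to 45.9 TPM (1.07 ± 0.32, adjusted p = 0.0377), the only call there besides Nop56 and Mrto4. Nop2, an rRNA cytosine methyltransferase, rose in DKO tumor of set 1 (1.63 ± 0.38), and in set 2 in DKO yBM, SKO BMT (1.77 ± 0.56), DKO BMT (1.83 ± 0.56) and DKO tumor. Nip7, a binding partner of Nop2, rose in 7 of the 9 comparisons, in DKO yBM of set 2 by 2.06 ± 0.39 (adjusted p = 0.00103). Grwd1, a WD-repeat histone chaperone, rose in DKO yBM, DKO BMT and DKO tumor of set 2 (in DKO BMT 1.77 ± 0.54, adjusted p = 0.0396).

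Rrp1b, a nucleolar protein of large-subunit precursors, was called in set 2 alone. In set 2 it was at 5.51, 6.12 and 7.16 TPM in the controls, 17.7, 15.5 and 24.9 TPM in SKO yBM, 31.1, 23.8 and 31.3 TPM in DKO yBM, 34.3, 26.6 and 31.3 TPM in DKO BMT and 54.9, 47.9 and 21.2 TPM in DKO tumor. These were all above the controls, as were the SKO BMT libraries at 19.1, 33.7 and 18.9 TPM, while SKO tumor was at 24.5, 3.55 and 16.5 TPM, with SKO tumor 2 below all controls. The difference was 2.03 ± 0.49 in DKO yBM (adjusted p = 0.0071) and 2.44 ± 0.49 in DKO tumor (adjusted p = 0.00168). In set 1 it was at 21.9, 16.6, 12.9 and 7.42 TPM in the controls and at 11.1 to 24.0 TPM (median 16.4) in DKO yBM, 28.4, 18.4 and 23.9 TPM in DKO BMT and 35.2, 18.6 and 32.4 TPM in DKO tumor, all of which overlap control. The difference between the sets was not tested. The controls of set 1 were thus all above those of set 2, and the cause was not tested.

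The abundant nucleolar proteins were called mainly in yBM and DKO tumor of set 2. Npm1 (nucleophosmin) had the highest level of all 44 genes, at 408, 352 and 322 TPM in the controls of set 2, 645, 696 and 934 TPM in SKO yBM and 785, 1573 and 1140 TPM in DKO tumor. DKO yBM was at 668, 924 and 558 TPM, SKO BMT at 388, 460 and 788 TPM, DKO BMT at 603, 764 and 665 TPM and SKO tumor at 760, 483 and 659 TPM, and of the 6 groups SKO BMT alone overlapped control. It rose by 1.64 in DKO tumor (adjusted p = 0.00114), as did Ncl (nucleolin), also by 1.64 (adjusted p = 0.00315). Ncl was at 202, 127 and 123 TPM in the controls and at 380, 590 and 438 TPM in DKO tumor, with no overlap. It was at 256, 299 and 413 TPM in SKO yBM, 280, 345 and 174 TPM in DKO yBM, 152, 190 and 251 TPM in SKO BMT, 219, 291 and 289 TPM in DKO BMT and 301, 118 and 202 TPM in SKO tumor. Of these, SKO yBM and DKO BMT were above all controls. In set 1 neither gene was called. Npm1 was at 516, 303, 442 and 385 TPM in the controls, 345 to 810 TPM (median 589) in DKO yBM, 853, 856 and 271 TPM in DKO BMT and 349, 877 and 1003 TPM in DKO tumor. Ncl was at 186, 110, 143 and 102 TPM in the controls, 111 to 237 TPM (median 205) in DKO yBM, 330, 334 and 87.5 TPM in DKO BMT and 151, 283 and 394 TPM in DKO tumor. All these groups overlapped control, and DKO BMT 3 was below all controls for both. Nolc1, a chaperone of snoRNPs, rose in 7 of the 9 comparisons, by 0.93 ± 0.27 in DKO yBM of set 1 (adjusted p = 0.0496) and by 2.01 ± 0.52 in DKO yBM of set 2 (adjusted p = 0.0114). Across the roles, 10 genes were called in no comparison, namely Bysl, Ddx18, Heatr1, Imp4, Ltv1, Mphosph10, Noc3l, Nop10, Nop14 and Utp20.

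Since the sets share no libraries, they can be set beside each other. All 10 genes called in DKO yBM of set 1 were called in DKO yBM of set 2, that is 100% of the list of set 1 and 32.3% of the 31 of set 2, while over all 13585 genes tested in both sets 153 genes called higher were shared, or 65.4% and 11.7%. For DKO BMT 7 were shared (77.8% of 9 and 41.2% of 17), against 47.0% and 10.6% over all genes. For DKO tumor 12 were shared (100% of 12 and 41.4% of 29), against 77.1% and 12.2% over all genes. These shares start from unlike levels, since set 2 called 31, 17 and 29 of the 44 genes in DKO yBM, DKO BMT and DKO tumor. Of the 13585 genes it called 1305, 592 and 1071 higher. The shares therefore do not show that the 44 genes repeat better between sets than other genes. Across the 44 genes, which are not independent of each other, the differences from control of the sets had a Pearson r of 0.46 in DKO yBM, 0.59 in DKO BMT and 0.72 in DKO tumor.

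Loss of leukocyte signal went with the knockout groups in set 2, where 19 or 20 of the 20 markers were called lower in each comparison with control. When the mean leukocyte marker level was added to the fit, a choice made after the data were seen, the median difference of the 44 genes was 1.35 in SKO yBM, 1.80 in DKO yBM, 1.47 in SKO BMT, 1.55 in DKO BMT, 0.64 in SKO tumor and 1.72 in DKO tumor, but none of the 44 was called apart from 1 in DKO tumor. The group and the leukocyte level cannot be told apart there. In DKO yBM and DKO BMT of set 1, where no leukocyte marker was called lower, 12 and 11 of the 44 were called with the covariate and the medians were 0.59 and 0.92. In DKO tumor of set 1, where 12 of the 20 markers were lower, the covariate left none called by limma, 20 at an unadjusted p under 0.05, with a median of 0.92. Of 12 proliferation genes, 8 rose in SKO yBM, 9 in DKO yBM, 4 in SKO BMT, 5 in DKO BMT, 4 in SKO tumor and 11 in DKO tumor of set 2, and 1, 0 and 2 in DKO yBM, DKO BMT and DKO tumor of set 1. Of all genes tested, 5.78%, 9.34%, 5.00%, 4.22%, 2.01% and 7.71% were called higher in these groups of set 2. The shares in those of set 1 were 1.67%, 0.958% and 1.19%. The part of proliferation in the changes of the 44 genes was not tested.

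Between DKO and SKO cells of set 2, which ask what loss of Wwox adds to loss of Trp53, limma called none of the 44 genes in yBM, BMT or tumor, where 0.0138%, 0% and 0% of all genes tested were called higher. Wwox went against the labels in part of these groups: the libraries labelled DKO tumor held 5.23, 4.78 and 4.26 TPM of Wwox, above all controls of the set, and those labelled SKO BMT 2 and 3 held 0.102 and 0.0857 TPM, so that the directions in tumor and BMT are those of the labels. In yBM 2 genes, Nhp2 (0.90 ± 0.34) and Mrto4 (0.85), had an unadjusted p under 0.05, as 0.871% of all genes had among those higher. The median of the 44 was 0.38 there, against -0.10 for all genes. In BMT the median was 0.07, against 0.00 for all genes, and 1 gene had such a p, Mphosph10 (1.07), as 1.16% of all genes had among those higher. In tumor all 44 genes were above 0, with a median of 1.05 against 0.25 for all genes, and 33 had an unadjusted p under 0.05 (6.92% of all genes were higher at such a p). The smallest p was that of Fbl, at a mean of 140 TPM in DKO tumor and 51.0 TPM in SKO tumor (1.70 ± 0.43), and its adjusted p was 0.585. Nop2 (1.71) and Rrp1b (1.63) were of like size. Myc overlapped in yBM, at 65.3, 51.5 and 67.0 TPM in DKO and 66.4, 50.8 and 57.7 TPM in SKO. In tumor Myc differed by 1.94, with 5.33 TPM in SKO tumor 2 beside 65.0 and 37.2 TPM in the other SKO tumor libraries. Without SKO tumor 2 the median of the 44 fell to 0.63, but that of all genes fell too, to -0.03. Then 11 of the 44 had an unadjusted p under 0.05. With median-ratio scaling in place of TPM the median of the 44 was 0.66, and that of all genes is not given here. The difference between the genotype effects in tumor and in yBM had a median of 0.78 over the 44 genes, with none called by limma (0.00692% of all genes) and 5 higher at an unadjusted p under 0.05 (2.69% of all genes). All genes had a median of 0.37. Without SKO tumor 2 the median of the 44 was 0.27, and that of all genes in the same fit is not given here. A p that misses the threshold with 3 libraries a group does not show that the genotypes are alike.

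Tumor and yBM cells of the same genotype did not part in a called gene either. In set 1 the DKO tumor libraries had a median of 0.43 over DKO yBM, with all genes at 0.16, none called by limma (0.0486% of all genes called higher) and 10 at an unadjusted p under 0.05 (8.98% of all genes). Utp20, a scaffold of the processome, was the only one of these whose libraries did not overlap (0.96, adjusted p = 0.181). In SKO cells the median was -0.72, with all genes at -0.34, 11 genes lower at an unadjusted p under 0.05 (6.09% of all genes) and none called by limma, as 0% of all genes. The largest drop there was that of Ddx21, an RNA helicase of the nucleolus, at -1.40 with overlapping libraries. Without SKO tumor 2 the SKO median was -0.29, with 1 gene at an unadjusted p under 0.05. The median of all genes in that fit is not given here. In DKO cells of set 2 it was -0.06, with all genes at 0.02 and 3 genes higher at an unadjusted p under 0.05 (2.40% of all genes), among them Mphosph10 and Ncl without overlap, and none called by limma (0.0622% of all genes called higher). Of the DKO yBM libraries of set 1, those at 4 months had a median of -0.23 against those at 1.5 months, against -0.11 for all genes, with 38 of 44 genes below 0 and 8 genes lower without overlap, beside 4.67% of all genes. None of the 44 was called by limma or had an unadjusted p under 0.05, and 0% of all genes were called lower.

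Myc itself was set against the 44 genes library by library. In set 1 Myc was at 36.3, 11.3, 37.7 and 16.6 TPM in the controls, 14.4 to 34.6 TPM in DKO yBM, 59.0, 13.6 and 33.7 TPM in DKO BMT and 40.9, 43.3 and 55.8 TPM in DKO tumor. The DKO tumor libraries and DKO BMT 1 lay above all controls, while the other BMT libraries and DKO yBM overlapped them, and Myc was not called in DKO yBM (-0.14, adjusted p = 0.855), DKO BMT (0.40, adjusted p = 0.677) or DKO tumor (1.00, adjusted p = 0.221). In DKO yBM of set 1, where 10 of the 44 genes rose, the Myc levels overlapped control. These levels are of RNA, and the part of Myc in the rise was not tested. In set 2 Myc was at 12.2, 20.4 and 20.1 TPM in the controls, 66.4, 50.8 and 57.7 TPM in SKO yBM, 65.3, 51.5 and 67.0 TPM in DKO yBM, 37.5, 85.0 and 67.1 TPM in SKO BMT, 90.7, 51.8 and 82.2 TPM in DKO BMT, 65.0, 5.33 and 37.2 TPM in SKO tumor and 168, 113 and 45.9 TPM in DKO tumor. All knockout libraries but SKO tumor 2 were above the controls, and Myc was called in DKO BMT (2.03, adjusted p = 0.0416) and DKO tumor (2.42, adjusted p = 0.0122). It missed the threshold in SKO yBM (1.70, adjusted p = 0.0794), DKO yBM (1.77, adjusted p = 0.0544), SKO BMT (1.75, adjusted p = 0.0711) and SKO tumor (0.48, adjusted p = 0.711).

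Over the 21 libraries of set 2, 41 of the 44 genes had a Pearson correlation with Myc past an adjusted p of 0.05 (100000 permutations, two-sided, adjusted over 14457 genes), while 23.8% of all genes were called positive, and the median r was 0.82. The highest were Rrp1b (r = 0.957, Spearman rho = 0.888), Nop2 (r = 0.942, rho = 0.865), Rrp9 (r = 0.925, rho = 0.756), Nolc1 (r = 0.906) and Utp4 (r = 0.897), each with a permutation p of 1e-05, the smallest these permutations can give, and an adjusted p of 0.000465. The lowest were Mphosph10 (r = 0.069, adjusted p = 0.850), Nop10 (r = 0.446, adjusted p = 0.116) and Nop58 (r = 0.497, adjusted p = 0.0697), which were not called. By the Spearman correlation 33 of the 44 were called, beside 6.97% of all genes. Without the libraries farthest from the median Myc, SKO tumor 2 and control BM 1, 34 were called, and r was 0.931 for Rrp1b, 0.854 for Nop2 and 0.875 for Rrp9.

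Controls and knockouts form separate clusters of Myc in set 2, SKO tumor 2 apart, so the relation was also taken within the knockouts. Over the 18 knockout libraries 25 of the 44 were called, beside 3.47% of all genes, with a median r of 0.77. This rested on SKO tumor 2: over the other 17 knockout libraries none of the 44 and none of the 14457 genes was called, 24 of the 44 had an unadjusted permutation p under 0.05 (4.16% of all genes were positive at such a p), and the median r was 0.50 against 0.01 for all genes. Over those 17 libraries r was 0.858 for Rrp1b, 0.724 for Nop2 and 0.729 for Rrp9. With the group of each library as a term beside Myc, 28 of the 44 were called by limma over the 21 libraries, beside 15.8% of all genes, and without SKO tumor 2 none was called, with 21 at an unadjusted p under 0.05 and 0% of all genes called. In the fit over all 21, the slope of log2(TPM + 1) on that of Myc was 0.81 ± 0.10 (SE) for Nop2, 0.70 ± 0.09 for Rrp1b and 0.45 ± 0.10 for Nop56, and without SKO tumor 2 it was 0.76 ± 0.16 for Nop2, 0.63 ± 0.14 for Rrp1b and 0.38 ± 0.16 for Nop56. With the leukocyte level beside Myc, 39 were called, beside 30.3% of all genes. The BMT cells of set 1 are described elsewhere in the study as paired with the tumors, and the permutations treat all libraries as independent. Without the BMT libraries, a choice made after the data were seen, 40 of the 44 were called in set 2, beside 26.7% of all genes.

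In set 1 none of the 44 genes was called against Myc over the 16 libraries by the Pearson or the Spearman correlation, while 0% of all genes were called. By the first, 9 had an unadjusted permutation p under 0.05, beside 5.05% of all genes that were positive at such a p, and by the second 5 did, beside 3.37%. Without the controls none of the 44 was called either, beside 0.0486% of all genes, and 5 had an unadjusted permutation p under 0.05, beside 11.5% of all genes. Without the BMT libraries none of the 44 and 0% of all genes were called. The median r was 0.39, against 0.08 for all genes. The highest were Ddx18, an RNA helicase of large-subunit assembly (r = 0.666, rho = 0.574, p = 0.00532, adjusted p = 0.575), Nob1 (r = 0.632), Utp20 (r = 0.573), Nop10 (r = 0.543) and Grwd1 (r = 0.537), and the lowest were Nop16 (r = -0.054), Tsr1 (r = 0.066) and Nop58 (r = 0.228). Nop10 was thus among the highest in set 1 and the lowest in set 2, and whether the sets differ in these relations was not tested.

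**Figure D4:**
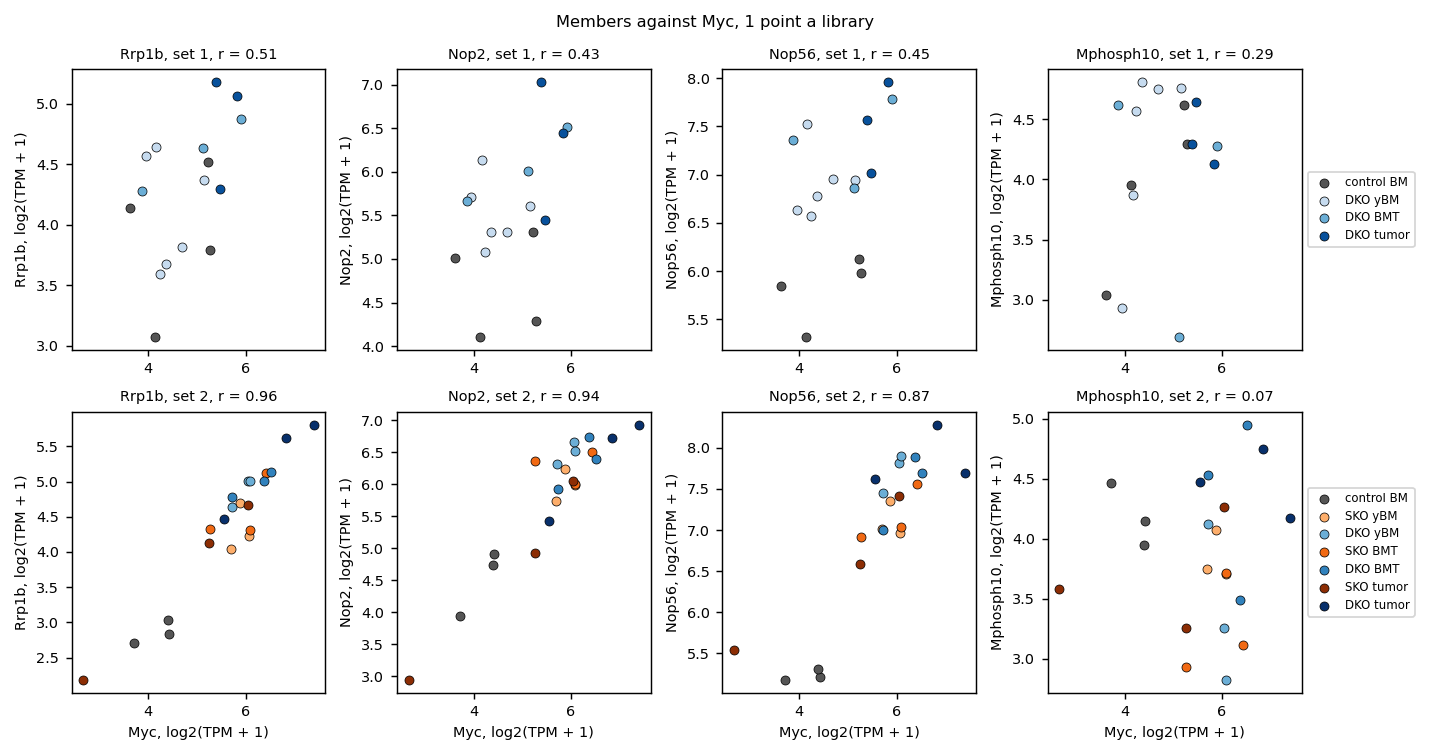
log2(TPM + 1) of Rrp1b, Nop2, Nop56 and Mphosph10 against that of Myc, with 1 point a library coloured by group, set 1 in the top row and set 2 in the bottom row. In set 2 the points of Rrp1b and Nop2 rise with Myc (r = 0.957 and 0.942) while those of Mphosph10 do not (r = 0.069), and in set 1 the points scatter more widely (r = 0.51 for Rrp1b).

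Myc binds DNA with its partner Max at the E-box CACGTG, which reads the same on both strands, so the promoters of the 44 genes were searched for these letters. Windows of 300 bases, from 250 before to 50 after the start of the transcript, came from RefSeq (GRCm38.p6, another build than that of the expression table) and were found for 39 of the 44 genes, without Bop1, Fbl, Npm1, Rrp12 and Tbl3. The letters stood in the windows of 9 of the 39 (23.1%) and in those of 8.09% of the 27025 genes of the RefSeq table, and in the 50 bases after the start of 7 (17.9%) against 1.28%. The RefSeq table was not filtered for expression, while the 44 genes all passed the expression filter, so these shares compare unlike sets of genes. They describe these windows and show no binding. The 30 bases around each match are given, with the matched letters in capitals and the distance of its first base from the start of the transcript. Whether a match bears on the relation to Myc was not tested. For 39 of the 42 windows of these genes, the last 30 bases were found in a reference transcript of the gene. Those of Imp4 and Nop2 were not, so their distances are less sure.
Imp4 at chr1:34439696-34439725, plus strand, from -121: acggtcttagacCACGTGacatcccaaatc
Nop2 at chr6:125131811-125131840, plus strand, from -60: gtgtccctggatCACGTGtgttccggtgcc
Grwd1 at chr7:45830740-45830769, minus strand, from 35: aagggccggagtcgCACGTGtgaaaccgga
Utp4 at chr8:106893643-106893672, plus strand, from 16: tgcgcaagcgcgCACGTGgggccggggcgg
Ltv1 at chr10:13193092-13193121, minus strand, from 29: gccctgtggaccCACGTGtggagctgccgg
Utp20 at chr10:88826765-88826794, minus strand, from 38: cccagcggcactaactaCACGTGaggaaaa
Pes1 at chr11:3963965-3963994, plus strand, from 3: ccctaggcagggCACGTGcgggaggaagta
Tsr1 at chr11:74898092-74898121, plus strand, from 25: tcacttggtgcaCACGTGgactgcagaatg
Wdr43 at chr17:71616220-71616249, plus strand, from 18: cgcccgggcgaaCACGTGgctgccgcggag

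Over the libraries of set 2 the correlation with Myc of the 9 genes that hold a match was 0.942 for Nop2, 0.897 for Utp4, 0.839 for Pes1, 0.838 for Grwd1, 0.836 for Utp20, 0.833 for Imp4, 0.805 for Tsr1, 0.654 for Wdr43 and 0.628 for Ltv1. In set 1 these correlations were 0.430, 0.367, 0.289, 0.537, 0.573, 0.271, 0.066, 0.309 and 0.356 in the same order, and none was called. The median over the whole list of nucleolar and ribosome assembly genes was 0.82 in set 2 and 0.39 in set 1. Rrp1b, Rrp9 and Nolc1, also among the highest in set 2, hold no match in the window searched. Imp4, Ltv1 and Utp20 were called in no comparison with control. The difference between genes with and without a match was not tested. No match says only that these letters are not in this window.

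Beyond the 44 genes, 96 other genes of ribosome assembly and RNA polymerase I were followed as a fixed list. In set 1, 3 of them rose in DKO yBM (1.67% of all genes tested), 2 in DKO BMT (0.958%) and 7 in DKO tumor (1.19%). None fell, beside 6.14%, 1.40% and 2.21% of all genes. The 3 that rose in DKO yBM were Lyar, a zinc-finger protein of the nucleolus (1.72, from a mean of 14.6 to 50.3 TPM), Nifk and Rrp15. In set 2, 18 rose in SKO yBM (5.78% of all genes), 38 in DKO yBM (9.34%), 19 in SKO BMT (5.00%) and 19 in DKO BMT (4.22%). In DKO tumor 36 rose (7.71%), and 2 rose in SKO tumor (2.01%). In each of SKO yBM, DKO yBM and SKO tumor 1 fell, beside 7.77%, 10.2% and 9.57% of all genes. The one that fell in SKO tumor was Pih1d1, a factor of snoRNP assembly, from a mean of 77.3 to 30.9 TPM (-1.40, adjusted p = 0.0107). The medians of the 96 were 0.32 to 0.57 in set 1 and 0.20 to 0.99 in set 2, below those of the 44 genes in each comparison.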

How the data were processed

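The authors trimmed reads with Trim Galore, quantified them with Salmon and deposited 1 table of TPM per gene, scaled to the same total in each library. Per the submitters' processing notes Trim Galore was version 0.6.1 and the build mm39. TPM keeps no depth, so the depth of each library and the counting error are unknown, and other transcripts, mitochondrial ones for example, can lower all TPM of a library. Poly-A RNA was used, so mature rRNA itself was not measured.

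Groups came from the sample labels, and the split into sets from the style of the titles. The 3 control columns of set 2 were matched to their group only, and their numbers name columns. For set 1 the study's methods give as many control mice, mice without tumors and mice with tumors as there are libraries from such mice. A legend instead calls the BMT cells of that set paired with the tumors. These statements differ, so the BMT and tumor groups may share mice, which the fits and permutations do not model. For set 2 the animals behind the libraries are not given in the sources used here, and p-values may reflect only how far these libraries differ.

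Per set, genes that reached 1 TPM in 3 or more libraries entered limma 3.58.1 (R 4.3.3, on log2(TPM + 1), trended prior, all groups of the set in 1 fit, Benjamini-Hochberg adjustment): 14404 genes in set 1 and 14458 in set 2. The relation to Myc was the Pearson correlation of log2(TPM + 1) with 100000 permutations (numpy 2.4.6, scipy 1.17.1), adjusted over 14403 and 14457 genes. Tests were checked on simulated data.

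The 44 genes and the lists were chosen with earlier results of these data known. All 44 could be named. Named in every library were the 2 most abundant of each role, and, for a comparison, up to 8 called genes with the largest difference. Other genes given library by library, such as Nop56, Rrp1b and Mphosph10, were chosen after their values were seen. For the relation to Myc the 5 highest and 3 lowest genes of each set were named. Of the fixed list, 3 RNA polymerase I genes were not matched and are not among the 96. Among the comparisons tested, where replicate numbers were shared, only the SKO and DKO BMT libraries deviated together by number (correlations of 0.293, 0.291 and 0.381). None of the 44 genes was called there, so blocking by number had no call to remove, and it added none. Between same-numbered DKO tumor and DKO BMT libraries of set 1 the correlations were 0.066, 0.285 and -0.091. Between same-numbered tumor and BMT libraries of each genotype in set 2, SKO and DKO, they lay between -0.144 and 0.134. Alternatives tried were a pseudocount of 0.1, no filter, median-ratio scaling, fits of 2 groups alone, replicate blocks, leaving out libraries, and covariates.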

Additional observations from a re-analysis of the deposited data

Results flagged for a closer look

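Of 94 sets of values tested (the 44 genes, Myc, Trp53 and Wwox in the groups of 4 and of 6 libraries of set 1), 4 held a library far from the rest of its group by Dixon's criterion, which chance alone gives in about 1 in 20. Nop56 was at 183 TPM in DKO yBM 3 of set 1, with the next library of the group at 123 TPM. Ddx18 was at 43.8 TPM in DKO yBM 2, with the next at 30.3 TPM. Noc3l, a factor of large-subunit assembly, was at 4.71 TPM in DKO yBM 4, below the next at 8.11 TPM, and at 9.46 TPM in control BM 1 of set 1, above the next at 5.93 TPM. Groups of 3 libraries were not tested.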

How the results depend on the processing

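Counts of called genes moved with the processing. Signs were followed only for the called genes with the largest difference in each comparison with control. They were not followed in the fits that left out 1 library at a time. None of those genes changed sign over the other alternatives, which is a weak check for genes already called. The signs of genes named but not called were not checked. In set 1, median-ratio scaling gave 22 called genes in DKO yBM, 16 in DKO BMT and 21 in DKO tumor, and no filter gave 5 in DKO BMT and 7 in DKO tumor. Fits of the compared groups alone called none of the 44 in DKO BMT (25 at an unadjusted p under 0.05 by limma), DKO tumor (30) and SKO tumor (3), 25 in SKO yBM and 11 in DKO BMT of set 2. Median-ratio scaling called 6 in SKO tumor. Without the libraries whose Wwox went against the label (chosen after seeing the data, as were the leukocyte covariate and the fits without controls), 0 were called in DKO yBM of set 1 (3 at an unadjusted p under 0.05), 1 in DKO BMT, 3 in DKO tumor and 3 in SKO BMT of set 2. DKO yBM of set 1 and SKO BMT of set 2 then hold 1 library, assumed to vary like those of the other groups. Without those whose Trp53 did, 7 were called in DKO BMT of set 1. With the leukocyte covariate, 0 were called in DKO tumor of set 1 and, in set 2, 1 in DKO tumor and 0 in the other knockout groups. The cause of these shifts was not tested, apart from the smaller number of libraries in some.

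With a replicate block, limma called 0 of the 44 in DKO yBM, DKO BMT and DKO tumor of set 1, with 22, 23 and 26 at an unadjusted p under 0.05, but same-numbered libraries did not deviate together there (correlations of -0.279 to 0.151). The control columns of set 2 carry no usable number, so no block was fitted against them.

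Leaving out 1 library at a time gave 1 to 10 called genes in DKO yBM, 1 to 9 in DKO BMT and 0 to 24 in DKO tumor of set 1. In set 2 it gave 5 to 10 in SKO yBM, 16 to 26 in DKO yBM, 7 to 13 in SKO BMT, 6 to 16 in DKO BMT, 0 to 7 in SKO tumor and 12 to 29 in DKO tumor. Associations with Myc numbered 0 in set 1 throughout and 39 to 42 in set 2 when 1 library was left out, 25 there without controls, 0 without controls and SKO tumor 2, 40 without the BMT libraries, and 0 with groups as terms and without SKO tumor 2. The comparisons of DKO with SKO, of tumor with yBM and of ages stayed at 0 called by limma under every alternative run. Depth is unknown for TPM, so low genes such as Rrp12 carry counting error that cannot be stated.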

Other observations

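The 76 genes for cytosolic ribosomal proteins, a list added after other results were known, gave another picture than the assembly genes in SKO tumor of set 2. There 20 of the 76 rose and none fell by limma, with a median difference of 0.93, while 3 of the 44 assembly genes rose with a median of 0.29. Of all genes tested, 2.01% were called higher there. In DKO yBM of set 2, 45 of the 76 rose (median 1.09), in DKO tumor 26 (0.92), in SKO BMT 21 (0.95), in DKO BMT 15 (0.93) and in SKO yBM 7 (0.64). In these groups 9.34%, 7.71%, 5.00%, 4.22% and 5.78% of all genes were called higher. In set 1 the counts were 13, 5 and 3 in DKO yBM, DKO BMT and DKO tumor, with medians of 0.36, 0.54 and 0.37. The shares of all genes there were 1.67%, 0.958% and 1.19%. Ribosomal protein genes have many near-identical pseudogenes, and how the authors' quantification shared their reads is not known. The difference between the lists was not tested, and the 76 genes were not refitted without SKO tumor 2.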
